A study of Anas platyrhynchos with 6 samples.

Results

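FSHR, CYP19A1 and SRD5A1 encode the receptor for follicle-stimulating hormone (FSH), the enzyme aromatase and a steroid 5-alpha reductase. Their transcripts were followed through 6 RNA-sequencing libraries of duck ovary. They were chosen by transcript identifier, XM_005012095.2 for FSHR, XM_013106596.1 for CYP19A1 and XM_005029333.2 for SRD5A1, and make up 3 of the 41952 transcripts in the tables. The libraries came from Jinding ducks, a breed of domestic duck (Anas platyrhynchos), all of the same half-sib family and kept under 1 feeding regime to 340 days of age. High ducks (3 libraries) had a laying rate above 99%, and low ducks (3 libraries) a rate below 85%. The design asks how ovaries of ducks that lay nearly every day differ from those of ducks that lay less often. No treatment or genetic change was applied, and follicle stage and time in the laying cycle are not given in the labels. The labels do not say that each library was 1 duck, and the spread that the p-values measure may be partly technical.

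FSH from the pituitary acts on granulosa cells, the layer next to the oocyte, through FSHR, a receptor coupled to G proteins that raise cyclic AMP. Aromatase turns androstenedione and testosterone into estrogens. In the hen, unlike in mammals, most aromatase of the follicle lies in the outer theca and not in the granulosa. The 5-alpha reductases act on some of the same precursors, turning testosterone into dihydrotestosterone, which aromatase cannot convert, and they also reduce progesterone. FSHR thus encodes the receptor for the hormone, and CYP19A1 and SRD5A1 encode enzymes of alternative fates of androgen. Only transcripts were measured here, not hormone, steroid or enzyme activity.

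Abundances are given as FPKM (fragments per unit of transcript length and of sequencing depth), and read depth is unknown. They summed to 622708 to 639135 FPKM in the high libraries and to 569606 to 605510 FPKM in the low ones. Every high library thus had a larger sum than every low one. In each library 18968 to 19712 transcripts were at 1 FPKM or above. Oocyte genes marked every library as ovary: of 25 oocyte and germ cell markers listed, 8 could be named here, each at 1 FPKM or more in all 6 libraries. Low 3 and low 1 stood apart most often. Low 3 was the lowest library for 29.2% of the 19790 transcripts tested and low 1 the highest for 26.9%. Both were also often at the other end, low 3 the highest for 20.3% and low 1 the lowest for 20.2%.

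All 3 transcripts were present in every library and passed the filter of at least 1 FPKM in at least 3 libraries. FSHR stood at 15.3, 12.8 and 17.9 FPKM in high 1, 2 and 3, and at 15.5, 18.6 and 16.2 FPKM in low 1, 2 and 3. Its 6 values lay within 1.45-fold of one another and the groups overlapped. The receptor transcript was above 61.2% to 69.4% of the transcripts that reached 1 FPKM in the same library.

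CYP19A1 stood at 40.3, 23.7 and 40.8 FPKM in the high ovaries and at 39.9, 25.6 and 12.8 FPKM in the low ones. High 1, high 3 and low 1 lay near 40 FPKM, high 2 and low 2 were lower, and low 3 was the lowest, so both groups held high and low values. From lowest to highest the aromatase transcript spanned 3.19-fold.

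SRD5A1 stood at 7.44, 7.57 and 8.40 FPKM in the high libraries, which were nearly alike. In the low libraries it stood at 13.3, 7.47 and 4.72 FPKM, so low 1 was the highest and low 3 the lowest of all 6 libraries. The high libraries fell inside the range of the low ones.

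**Figure D1:**
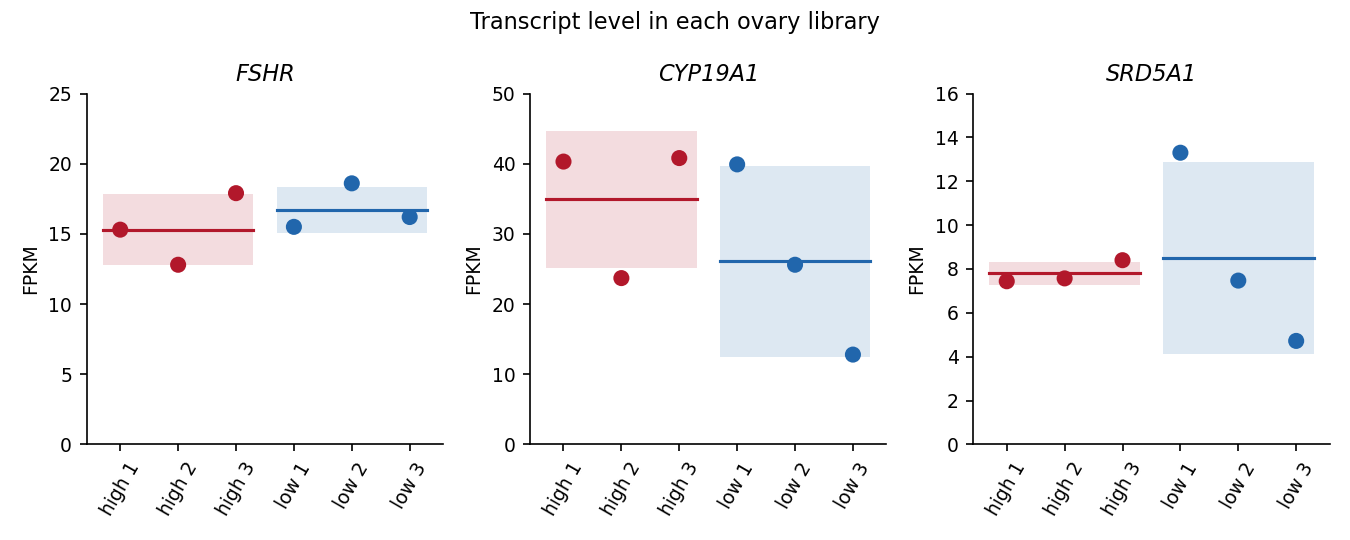
FPKM (y axis, from 0, with a scale of its own in each panel) of FSHR, CYP19A1 and SRD5A1 in each library; points are libraries, lines are group means and shaded bands are 1 SD on either side (n = 3 per group). FSHR stays between 12.8 and 18.6 FPKM, while CYP19A1 and SRD5A1 are lowest in low 3, at 12.8 and 4.72 FPKM.

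The group means did not separate for any of the 3 transcripts. FSHR averaged 15.3 ± 2.54 FPKM in high and 16.7 ± 1.62 FPKM in low ovaries (SD, n = 3 each). CYP19A1 averaged 34.9 ± 9.74 FPKM against 26.1 ± 13.6 FPKM, and SRD5A1 7.80 ± 0.519 FPKM against 8.50 ± 4.39 FPKM. On the log2(FPKM + 1) scale, which understates changes of low transcripts, the differences high minus low were -0.13 for FSHR, 0.50 for CYP19A1 and -0.01 for SRD5A1. By limma-trend (a moderated linear model) across 19790 transcripts, with Benjamini-Hochberg adjustment and a threshold of 0.05, 0 of the 3 were called, and the adjusted p was 0.9998 for each. On simulated data with known changes this test called 12% of changes of 1 log2 unit and 58% of changes of 2. The simulation drew independent libraries with the same spread in both groups, which these data do not have, so the rates are a rough guide. They are also averages over transcripts, and the standard error (SE) of CYP19A1, 0.401, was above the median of all tested, 0.261. The lack of a call here and below therefore does not show equal levels.

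That test called 1 transcript of all tested, or 0.00505%, and 0 of the 3 had an unadjusted limma p under 0.05, which 3.51% of all tested had. The groups overlapped for all 3 transcripts; they did not overlap for 8.54% of all tested. The 95% interval was narrowest for FSHR, from -0.56 to 0.30 on the log2 scale. That of SRD5A1 ran from -0.78 to 0.76, and that of CYP19A1, from -0.43 to 1.44, leaves room for more than 1 log2 unit in favour of high ovaries. The CYP19A1 and SRD5A1 differences turned on single low libraries. Without low 3 the CYP19A1 difference was 0.082 (limma adjusted p = 0.966), and without low 1 it was 0.87 (limma adjusted p = 0.507). SRD5A1 went from -0.33 without low 3 to 0.34 without low 1 (limma adjusted p = 0.831 and 0.667).

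Within the groups the 3 genes varied differently. On the log2(FPKM + 1) scale SRD5A1 had an SD of 0.0839 over the high libraries, and 87.3% of tested transcripts had a larger one. Over the low libraries its SD was 0.664, with a larger one in 15.1% of tested transcripts. A wider spread among low libraries was common, since 67.7% of tested transcripts had the larger SD there and the medians of all tested were 0.219 in high and 0.335 in low. FSHR went the other way, with SDs of 0.227 in high and 0.130 in low, and 87.0% of tested transcripts varied more than it did among the low libraries. CYP19A1 was among the more variable transcripts in both groups, with SDs of 0.434 and 0.790, exceeded by 17.9% and 9.22% of tested transcripts. No test of these spreads was made.

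**Figure D2:**
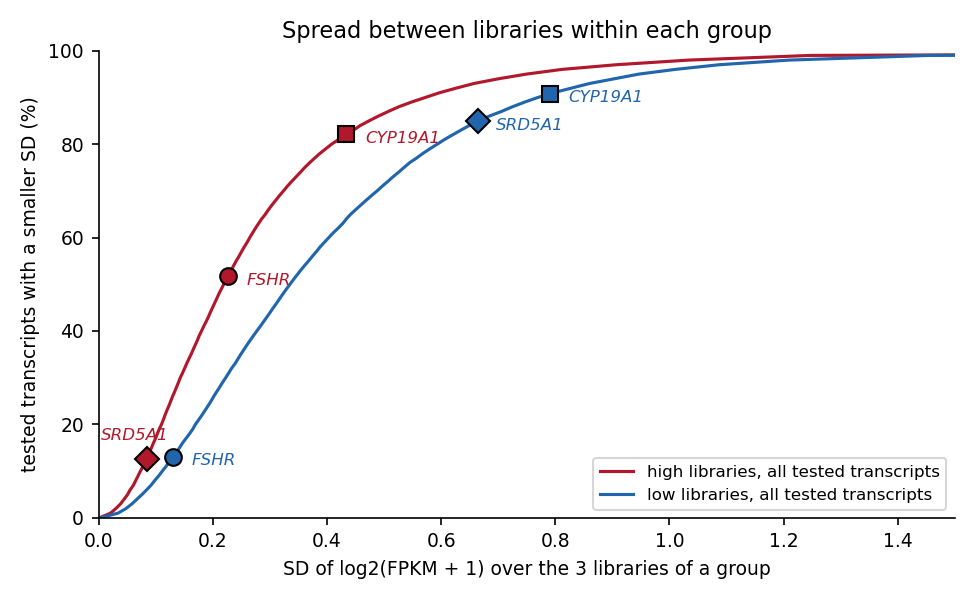
Share of tested transcripts with a smaller SD (y axis, percent) against the SD of log2(FPKM + 1) over the 3 libraries of a group (x axis, cut at 1.5). Curves are all 19790 tested transcripts and symbols the 3 genes; SRD5A1 lies low on the curve of the high group, at 0.0839, and far up that of the low group, at 0.664.

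FPKM is per transcript length, which lets levels of the 3 transcripts be set against each other within a library. The tables do not state this unit, and if the values were not per length, the levels of different transcripts and the sizes of their ratios could not be compared, whereas differences in a ratio between libraries still could. CYP19A1 was the highest and SRD5A1 the lowest in 5 of the 6 libraries. In low 3, FSHR, at 16.2 FPKM, was above CYP19A1, at 12.8 FPKM. SRD5A1 was below FSHR in all 6 libraries, at 0.489 times its level (geometric mean). It was below CYP19A1 in all 6 as well, with CYP19A1 at 3.63 times its level. CYP19A1 averaged 1.78 times FSHR, with low 3 on the other side, and no test of these orders was made.

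The ratio of CYP19A1 to FSHR gives the aromatase transcript per unit of receptor transcript, and a scaling of a whole library cancels out of it. With FSHR in granulosa cells and most hen aromatase in the outer theca, it sets transcripts of different cell layers against each other. The part of each layer's share of the ovary in this ratio was not tested. It came to 2.64, 1.85 and 2.28 in high ovaries and to 2.58, 1.38 and 0.791 in low ones. Low 1 lay among the high libraries, and low 2 and low 3 lay below all of them. The means were 2.26 ± 0.396 and 1.58 ± 0.910 (SD, n = 3 each). The log2 ratio was 0.66 higher in high ovaries, a 1.58-fold difference, with a two-sided exact permutation p of 0.3 (0.45 adjusted over the 3 ratios). With 3 libraries against 3 that test cannot go below 0.1, so it could not have reached 0.05. Of the 9 differences between a high and a low library 7 were above 0, and they ran from -0.48 to 1.74 on the log2 scale. Without low 3 the log2 difference was 0.25, and without low 1 it was 1.10.

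The ratio of SRD5A1 to FSHR came to 0.488, 0.592 and 0.470 in high ovaries and to 0.860, 0.402 and 0.292 in low ones. All 3 high libraries fell between low 1 and low 2. The means, 0.516 ± 0.0658 and 0.518 ± 0.301, were almost the same, and the low libraries spanned 2.95-fold against 1.26-fold among the high ones. The log2 difference was 0.14 with an exact permutation p of 0.8 (0.8 adjusted), and it turned to -0.20 without low 3.

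The ratio of CYP19A1 to SRD5A1 sets the estrogen-forming transcript against the 5-alpha reducing one. It came to 5.42, 3.13 and 4.86 in high ovaries and to 3.0, 3.43 and 2.71 in low ones. Only high 2 reached into the range of the low libraries, at 3.13 against 3.43 in low 2, and 8 of the 9 differences between a high and a low library were above 0. The means were 4.47 ± 1.19 and 3.04 ± 0.363. The log2 ratio was 0.52 higher in high ovaries, a 1.44-fold difference, with an exact permutation p of 0.2 (0.45 adjusted over the 3 ratios). Here the low libraries were the closer group. They lay within 1.27-fold of one another although CYP19A1 itself spanned 3.12-fold and SRD5A1 2.82-fold among them. Both transcripts fell from low 1 to low 2 to low 3. So did HSD17B2, at 52.4, 36.7 and 24.6 FPKM, and the summed oocyte and germ cell markers, at 1255, 936 and 464 FPKM. The close ratio is therefore not shown to be particular to this pair.

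**Figure D3:**
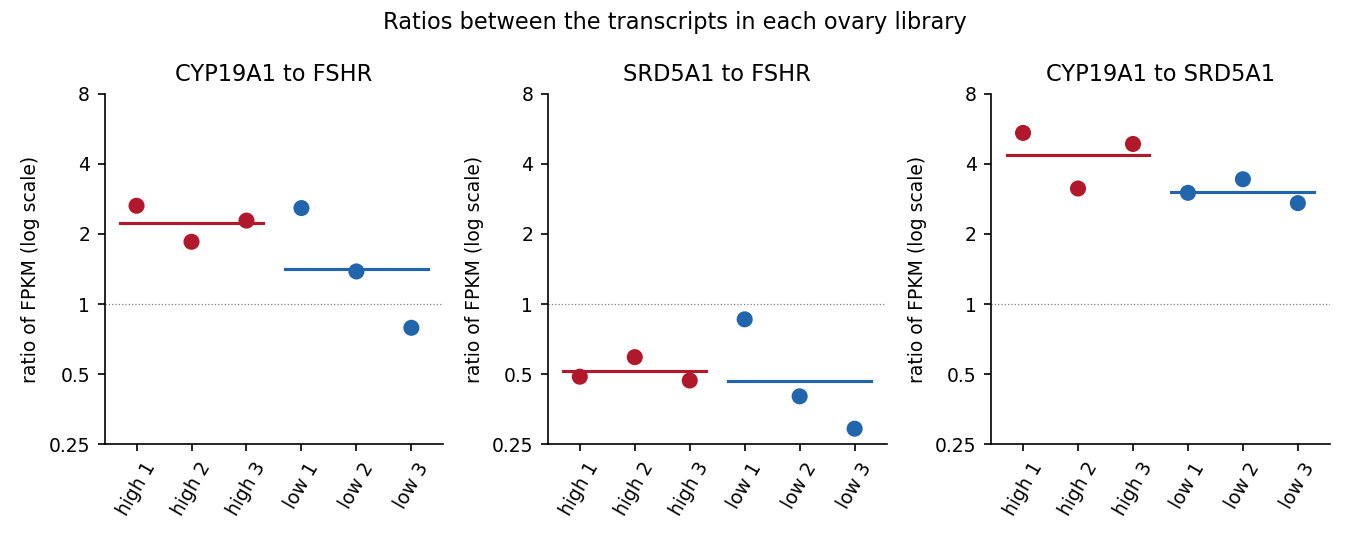
Ratio of FPKM values (y axis, log scale) in each library for the 3 pairs of transcripts; points are libraries, coloured lines are geometric means of each group (n = 3) and the dotted line marks a ratio of 1. CYP19A1 to FSHR falls below 1 in low 3 alone, at 0.791, and CYP19A1 to SRD5A1 is between 2.71 and 3.43 in the low libraries.

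Across the 6 libraries CYP19A1 and SRD5A1 varied in parallel to some extent, and FSHR with neither. For CYP19A1 and SRD5A1 Pearson's r on log2(FPKM + 1) was 0.78 (exact permutation p = 0.0986, adjusted 0.296). Spearman's rho was 0.49 (exact permutation p = 0.356, adjusted 1). Without high 2 and low 3, the libraries farthest from the median of CYP19A1, r was 0.39. Low 3 alone carried most of this, since r was 0.47 without it (exact permutation p = 0.583) and 0.78 to 0.88 with any other library left out. After subtraction of the group means r was 0.88, also over the 6 libraries and without a test. SRD5A1 varied little among the high libraries (SD 0.0839 against 0.664 in low), so this value rests mainly on the low ones. For FSHR, r was 0.10 with CYP19A1 (exact permutation p = 0.835) and -0.057 with SRD5A1 (exact permutation p = 0.91), both 0.91 adjusted. Spearman's rho was 0.14 and -0.029 (exact permutation p = 0.803 and 1, both 1 adjusted). Without high 2 and low 2, the values of r were 0.012 and -0.15. Too few libraries stand in each group for a correlation within it.

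Markers of the cells in an ovary also differed between libraries. The 8 oocyte and germ cell genes summed to 773 to 1042 FPKM in the high libraries, and to 1255, 936 and 464 FPKM in low 1, 2 and 3. Low 3 was the lowest library for 7 of the 8 and low 1 the highest for 6, against 29.2% and 26.9% of all tested transcripts. Low 1 highest together with low 3 lowest, as for SRD5A1, held for 6 of the 8 and for 15% of all tested. The reverse held for 0 of the 8 and for 8.81% of all tested. Smooth muscle markers, which the contractile outer theca also expresses, were ordered the other way in those libraries. The 2 of 12 that were named, ACTA2 and SYNPO2, summed to 1488 to 1892 FPKM in high and to 1216, 2217 and 2652 FPKM in the low libraries. Stromal fibroblast markers (7 of 12 named) summed to 1472 to 2029 FPKM in high libraries and to 1046, 1596 and 2023 FPKM in low 1, 2 and 3. All 7 differences were above 0, and their median was 0.33 on the log2 scale, against -0.003 over all tested. Of these 7, 0 were called by limma and 0 had an unadjusted limma p under 0.05. Leukocyte markers (8 of 16 named, 7 tested) had the widest range of sums by fold. They ran from 1580 FPKM in high 1 to 196 FPKM in low 1, with 435 to 573 FPKM in the other 4 libraries. JCHAIN alone was at 1348 FPKM in high 1, 95.5 FPKM in low 1 and 282 to 388 FPKM elsewhere. Of the 7 tested, 6 differences were above 0, and the median was 0.56, against -0.003 over all tested. By limma 0 were called. Only LAPTM5 had an unadjusted limma p under 0.05 (0.0447, adjusted 0.9998), as had 3.51% of all tested transcripts. CYP19A1 was near 40 FPKM in low 1, the library lowest in leukocyte and stromal sums. It was also at 40.3 FPKM in high 1, where the leukocyte sum was highest and the stromal sum was 1992 FPKM. In high 3 it was at 40.8 FPKM, with a leukocyte sum of 438 FPKM and a stromal sum of 1472 FPKM. A relation between CYP19A1 and these sums was not tested. Endothelial markers (5 of 12 named) summed to 144 to 179 FPKM in high and 107 to 151 FPKM in low libraries. By gene, 2 differences were above 0 and 3 below 0, with a median of -0.053 on the log2 scale and 0 called by limma.

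In bulk tissue, fewer cells of a type and less RNA per cell cannot be told apart. The part of cell makeup in the levels of the 3 transcripts and in their ratios was not tested. Of the granulosa markers other than FSHR, 5 of 20 listed were named, with a sum of 140 to 155 FPKM in high and of 185, 123 and 115 FPKM in the low libraries, lowest in low 3. Most of that sum was the gap junction gene GJA1, at 69.7 FPKM in low 3. GJA1 and SERPINE2 were lowest there, while FST, SLC34A2 and FSHR were not. Of the theca markers other than CYP19A1 only the nuclear receptor gene NR2F2 was named, at 212 to 240 FPKM in high and 164, 194 and 366 FPKM in the low libraries. NR2F2 was highest in low 3, where CYP19A1 was lowest and the smooth muscle sum, at 2652 FPKM, was also highest. This 1 gene does not measure the amount of theca. The defining theca enzyme CYP17A1 and granulosa hormone AMH were not analysed here.

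**Figure D4:**
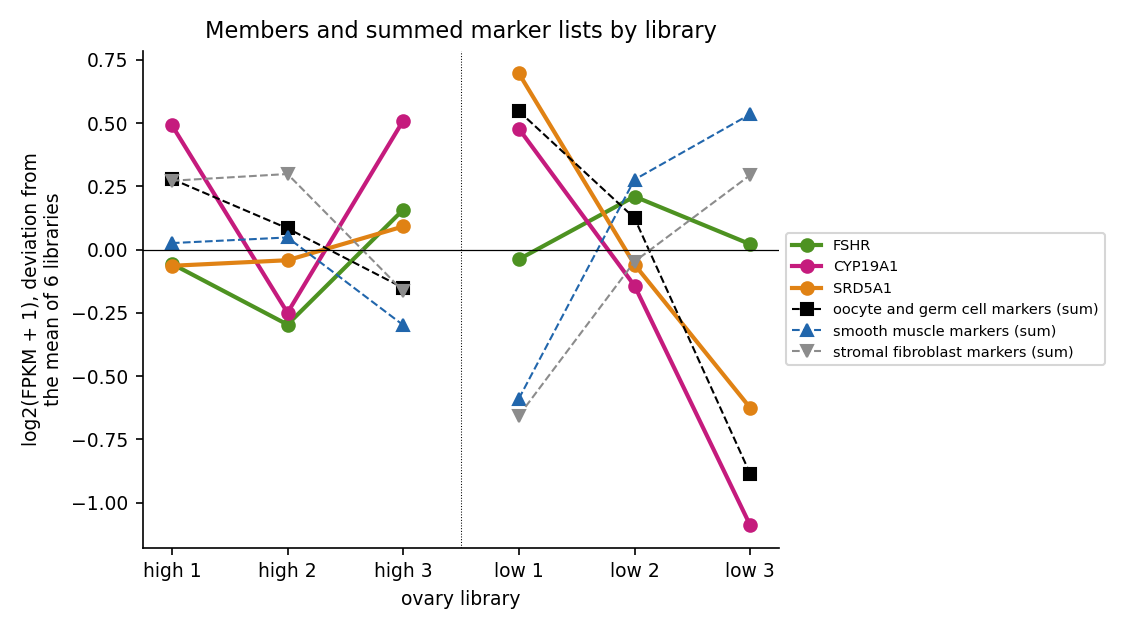
Deviation of log2(FPKM + 1) from the mean of the 6 libraries (y axis) for FSHR, CYP19A1, SRD5A1 and the summed marker lists, by library (x axis); lines join libraries of 1 group only to guide the eye, since libraries have no order. In low 3 CYP19A1, SRD5A1 and the oocyte sum, at 464 FPKM, are at their lowest and the smooth muscle sum, at 2652 FPKM, is at its highest, while FSHR is near its mean.

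The genes around FSHR in its signalling path were likewise not called. Of 63 genes listed for gonadotropin and cyclic AMP signalling 14 were named and 11 tested, FSHR among them, with 5 differences above 0, 6 below 0 and 0 called by limma. Their median log2 difference was -0.13, against -0.003 over all tested, and 0 had an unadjusted limma p under 0.05. The smallest p belonged to ADCY7, an adenylate cyclase that makes cyclic AMP, with a transcript at 0.947 against 1.88 FPKM (log2 difference -0.52, SE 0.300). PDE4B, a phosphodiesterase that degrades it, had a transcript at 4.97, 0.0740 and 5.29 FPKM in high and 3.52, 5.40 and 7.19 FPKM in low libraries, so high 2 alone was near 0. Its 3 named transcripts together came to 6.67, 5.43 and 7.48 FPKM in high and 4.85, 6.64 and 8.44 FPKM in low libraries, with no such gap. Another of the 3, XM_005028035.2, went the other way. It was at 1.53, 5.21 and 2.14 FPKM in high and 1.18, 0.666 and 0.486 FPKM in low libraries. Its groups did not overlap, as held for 8.54% of all tested, and its p is not among those counted. RAPGEF4, an exchange factor driven by cyclic AMP, was at 1.22 against 1.69 FPKM, and PRKAR2B, a regulatory subunit of protein kinase A, at 2.89 against 3.64 FPKM. PRKACB, a catalytic subunit of that kinase, was at 7.88 against 7.75 FPKM. The thyrotropin receptor TSHR, a close relative of FSHR, summed to between 0.0230 and 0.362 FPKM over its 3 named transcripts, so the FSHR values stand far above its level in every library. The luteinizing hormone receptor was not analysed here.

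Among genes of steroid synthesis and metabolism, 6 of 47 listed were named and 4 tested, CYP19A1 and SRD5A1 among them. Their median log2 difference was 0.062, with 2 above 0, 2 below 0 and 0 called by limma, and 0 had an unadjusted limma p under 0.05. HSD17B2 oxidises estradiol and testosterone to less active forms. It stood at 37.3, 47.4 and 35.8 FPKM in high and 52.4, 36.7 and 24.6 FPKM in low libraries. ACBD3, which in mammals is linked to cholesterol delivery into mitochondria, was at 44.0 against 47.8 FPKM. HSD17B2 and ACBD3 shared with SRD5A1 the highest value in low 1 and the lowest in low 3. That pattern held for 3 of the 4 tested genes of the list, SRD5A1 included, and for 15% of all tested transcripts. The other reductases SRD5A2 and SRD5A3 and the earlier enzymes of the pathway were not analysed here.

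Steroid receptors and gonadal regulators had 6 of 38 listed genes named and 4 tested, with 3 differences above 0, 1 below 0 and 0 called by limma (0 also at an unadjusted limma p under 0.05). The median log2 difference was 0.079. NRIP1, a corepressor of nuclear receptors, had transcripts whose differences had opposite signs. XM_005030282.2 was at 11.5 ± 1.89 against 8.50 ± 4.32 FPKM and XM_005030281.2 at 6.69 ± 0.221 against 11 ± 2.87 FPKM. Their sum was 18.2 ± 1.99 against 19.5 ± 1.51 FPKM. XM_005030282.2, the more abundant, is the one counted above. The groups did not overlap for XM_005030281.2, at 6.53 to 6.94 FPKM in high and 9.3 to 14.3 FPKM in low libraries. Such a gap held for 8.54% of all tested transcripts, and the p of XM_005030281.2 is not among those counted. The transcription factor FOXO1 was at 12.1 against 11 FPKM, NR2F2 (main transcript) at 197 against 202 FPKM and the mineralocorticoid receptor NR3C2 at 11.7 against 13.1 FPKM.

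**Figure D5:**
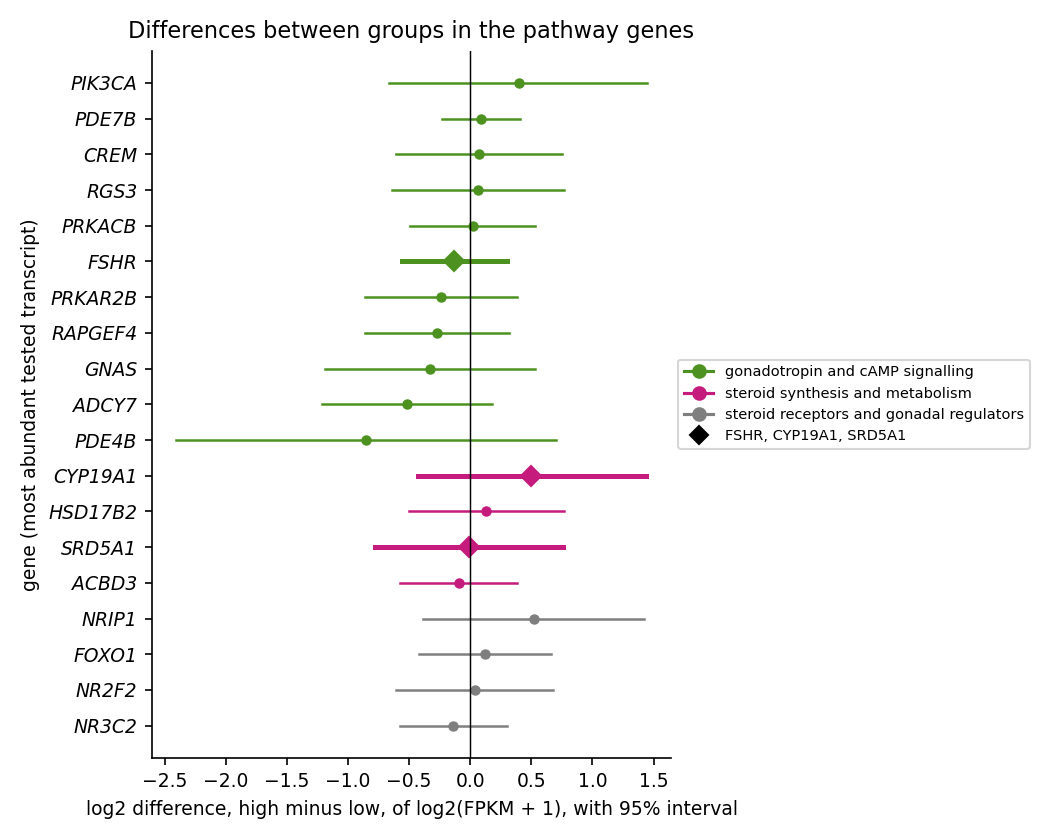
Log2 difference, high minus low, of log2(FPKM + 1) with its 95% interval from limma-trend (x axis) for the tested genes of the 3 pathway lists (y axis; 3 libraries per group). Every interval holds 0; those of FSHR, CYP19A1 and SRD5A1, drawn as diamonds, are -0.56 to 0.30, -0.43 to 1.44 and -0.78 to 0.76.

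The named transcripts whose profile over the 6 libraries was most like each gene were ranked by Pearson's r on log2(FPKM + 1), among 1335 other named transcripts with a mean of at least 5 FPKM. With 6 libraries and so many transcripts, high values of r arise readily, and the libraries share whatever else differs between them. For FSHR the closest were NOP14, a factor of ribosome assembly (r = 0.984), CDC42EP4 (0.961), FEM1A (0.932), SMPD4 (0.926) and SMAD3, a transducer of activin signals (0.908). NOP14 stood at 17.2, 14.6 and 19.9 FPKM in high and 17.2, 22.0 and 17.8 FPKM in low libraries, lowest in high 2 and highest in low 2, as FSHR was. The most opposite were GBGT1 (-0.954), RTN4 (-0.931) and SUN1 (-0.927). Only 5 transcripts, or 0.375%, reached an r of 0.9 with FSHR.

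CYP19A1 was matched most closely by TRMT10C, a mitochondrial tRNA processing factor (r = 0.989), and by NFYB, a subunit of the CCAAT-binding factor NF-Y (0.989). LMO1 (0.985), ALG5 (0.972) and CD80 (0.970) followed. NFYB stood at 15.6, 9.67 and 16.6 FPKM in high and 16, 10.4 and 6.77 FPKM in low libraries, high and low in the same libraries as aromatase. AGTR2, a receptor for angiotensin II, was the most opposite (-0.974), with its highest value, 10.3 FPKM, in low 3, and ARID2 (-0.969) and CTTNBP2 (-0.967) came next. An r of 0.9 with CYP19A1 was reached by 34 transcripts, or 2.55%.

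SRD5A1 had the most companions, with 108 transcripts, or 8.09%, at an r of 0.9 or more. The closest were VTI1A (0.993), RAB19 (0.991), RAB20 (0.989), METTL16 (0.985) and TBC1D7 (0.982), of which VTI1A and the RAB genes act in membrane traffic. RAB20 stood at 48.3, 51.9 and 52.9 FPKM in high and 76.5, 46.3 and 31.5 FPKM in low libraries, with the same flat high group and the same extremes in low 1 and low 3. HOXB4, a homeobox gene, was the most opposite (-0.992), at 16.1 FPKM in low 1 and 49.7 FPKM in low 3, followed by SLMAP (-0.988) and MAU2 (-0.987).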

How the data were processed

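Per the labels' protocols, RNA was extracted from frozen ovaries with Trizol and sequenced from stranded TruSeq mRNA libraries. The tools named are Bowtie2 2.0.6 and TopHat2 2.0.9, per the submitters' processing notes. The way abundances were estimated, the build and the annotation were not given in the sources used here. No unit stands in the deposited tables. Their fractional values, with sums that differ between libraries, were read as FPKM made by the authors, which is an inference.

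Accessions, without their version, were looked up in RefSeq's gene table for the IASCAAS Pekin duck assembly. It named 3452 transcripts under 2325 symbols, and 1 deposited transcript each for FSHR, CYP19A1 and SRD5A1; further isoforms under other accessions would not be seen. No coordinates or sequences were used. No steps of whole reads were found among 6632 low transcripts (the fullest bin of 0.02 log2 units held at most 1.10%), so depth is unknown and precision comes from replicates.

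The log2(FPKM + 1) values of transcripts that reached 1 FPKM in 3 or more libraries were fitted with limma 3.58.1 in R 4.3.3 on group alone, after a check on simulated data. Ratios used no pseudocount and exact permutation tests in scipy 1.17.1. A gene entered a list through its most abundant tested transcript. Up to 4 genes with the smallest p in each pathway list were named, plus relatives of the 3 genes, and the 5 most alike and 3 most opposite transcripts. PRKACB, NOP14, NFYB and RAB20 were given values after the values were seen. The NRIP1 and PDE4B transcripts were also summed and looked at for overlap after that. Some list genes are not reported here and were left out of the lists. The genes and lists were chosen with earlier results of these data known. Libraries are numbered 1 to 3 within a group in the order of the sample records.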

Additional observations from a re-analysis of the deposited data

How the results depend on the processing

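When single libraries were left out, the log2 difference of FSHR ran from -0.24 to -0.014, of CYP19A1 from 0.082 to 0.87 and of SRD5A1 from -0.33 to 0.34. The difference in log2 ratio ran from 0.25 to 1.10 for CYP19A1 to FSHR, from -0.20 to 0.58 for SRD5A1 to FSHR and from 0.36 to 0.76 for CYP19A1 to SRD5A1. All 3 ratio differences kept their direction with a pseudocount of 1 FPKM and as ratios of group means, where SRD5A1 to FSHR came to 0.0041. FSHR and CYP19A1 kept their direction in all 10 other settings, and 0 of the 3 genes were called by limma in any setting. The changes of filter, the fit without a trend and the exact permutation test cannot alter these differences. Direction was thus fixed in those settings for all 3 genes. The SRD5A1 difference, near 0, turned positive in 5 of its 10 other settings, at 0.0011 and 0.0025 with pseudocounts of 0.1 and 0.01 FPKM, 0.031 with median centring, 0.031 with quantile normalization and 0.045 with array weights. Array weights, in which low 2 carried 97.1% of its group's weight, also moved FSHR to -0.30 (limma adjusted p = 0.123). The low group then rested on nearly 1 library, so calls in that setting are not read as differences. Those weights raised the number of transcripts called from 1 to 2292, of 19790 tested. That number was 0 at a pseudocount of 0.01 FPKM and 0 with no filter (662 and 1771 at an unadjusted limma p under 0.05), and 0 to 2 with a library left out, with 2 without high 1 and 0 without low 2 (447 at an unadjusted limma p under 0.05). At an unadjusted limma p under 0.05 there were 1882 without low 1 and 1416 without low 3, against 694 with all 6 libraries. Without any other library there were 428 to 573. The cause of these shifts in number was not tested. Pearson's r with a library left out ran from -0.10 to 0.27 for FSHR and CYP19A1, from -0.16 to 0.046 for FSHR and SRD5A1 and from 0.47 to 0.88 for CYP19A1 and SRD5A1, a check added after the data were seen. The planned sum over several matched transcripts of a gene was not run, because each gene had 1. No paired analysis was possible because the labels give the groups no shared replicate numbers.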
